A study of Mus musculus with 4 samples.

Results

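The circular RNAs (circRNAs) described here came from 4 mouse genes of the extracellular matrix: the fibrillar collagen genes Col3a1, Col1a1 and Col1a2, and the matrix Gla protein gene Mgp. Their circles were chosen by position and strand alone: every circle inside chr1:45368000-45407000 on the plus strand (Col3a1), chr11:94797000-94815000 on the plus strand (Col1a1), chr6:4455000-4492000 on the plus strand (Col1a2) or chr6:136820000-136825000 on the minus strand (Mgp), in the mm9 build. The windows held 261 of the 69136 circles of the series, 126 at Col3a1, 1 at Col1a1, 118 at Col1a2 and 16 at Mgp. No entry lay on the opposite strand or across an edge of a window (0 entries). Circles were read in C2C12, a mouse myoblast cell line whose cells fuse to form myotubes when serum is lowered, here after 3 to 4 days in a medium with 2% horse serum. In the RPAD group (2 libraries) RNA was digested with RNase R for 30 min, the linear RNA left was given poly(A) tails, and poly(A)+ RNA was removed. The total RNA group (2 libraries) was the same line in the same medium, labelled as control, without these steps. The protocol in the labels describes the RNase R step with HeLa RNA, whereas every library is labelled C2C12, and the labelled line is used here. Whether libraries of 1 group came from separate cultures is not stated, so p-values measure library-to-library spread, which may be technical. The line was not checked against marker genes here, since the files name hosts by transcript and not by gene symbol.

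Fibrillar collagens are secreted chains that wind into triple helices and pack into the fibres that carry load in skin, tendon, bone and the connective tissue around muscle. Col1a1 and Col1a2 encode the chains of type I collagen, Col3a1 the chain of type III collagen, and the helical stretch of such chains is encoded by many short exons, often 54 bases long or a multiple of that. Mgp encodes a small secreted protein that needs vitamin K-dependent carboxylation and is known for holding back calcification of cartilage and vessel walls. A circRNA arises when a splice site is joined to one upstream of it in the same transcript, and reads across that back-splice junction count it. Circles made of exons resist RNase R, which digests RNA from a free 3' end, while circles of intron sequence are best known from lariats that close at the branch point near the end of the intron.

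The RPAD libraries held 150478 and 191246 back-splice reads on 15460 and 26403 circles, and the total RNA libraries held 38850 and 35981 reads on 18809 and 16477 circles. A count of 0 reads therefore allows a share of up to 0.00199% and 0.00157% of the RPAD libraries and up to 0.00772% and 0.00834% of the total RNA libraries, at 3 reads of the total. The 4 genes accounted for 35 and 184 circles in RPAD and for 34 and 35 in total RNA. Since PCR copies were not marked, the intervals and floors take in counting error alone. Shares are relative to all back-splice reads of a library, and in RNA of a whole culture fewer cells of a type and less RNA per cell cannot be told apart. Across the whole series no circle was called between RPAD and total RNA by edgeR at an adjusted p under 0.05 (0 of 924 tested, 0.00%), while 162 passed an unadjusted p under 0.05. No host was called by edgeR either (0 of 1424 host groups tested, 0.00%), with 375 at an unadjusted p under 0.05, while DESeq2 called 0 circles and 104 hosts.

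Mgp was read in total RNA and had no read in RPAD, and most of its reads came from 1 exonic circle. The Mgp locus had 0 reads in RPAD library 1 and 0 in RPAD library 2, against 116 in total RNA library 1 and 103 in total RNA library 2. These were 0% and 0% of RPAD back-splice reads, against 0.299% (exact 95% interval 0.247 to 0.358) and 0.286% (0.234 to 0.347) of total RNA reads. Both total RNA libraries stood far above both RPAD libraries, and the groups did not overlap, as for 40.6% of host groups tested with RPAD lower. Mgp ranked 29 of 3798 host groups in total RNA library 1 and 33 of 3254 in total RNA library 2 by reads, which put it among the most read hosts of total RNA. With a floor of 3 reads over the RPAD group, the share of the locus was at least 333-fold lower in RPAD, a bound that covers only the counting error of the 0 reads. The difference in mean share was -0.292 percentage points (0% in RPAD, against 0.292 ± 0.00871% in total RNA, SD, n = 2 each), with an exact two-sided permutation p of 0.333, the smallest that 2 libraries against 2 allow.

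**Figure D1:**
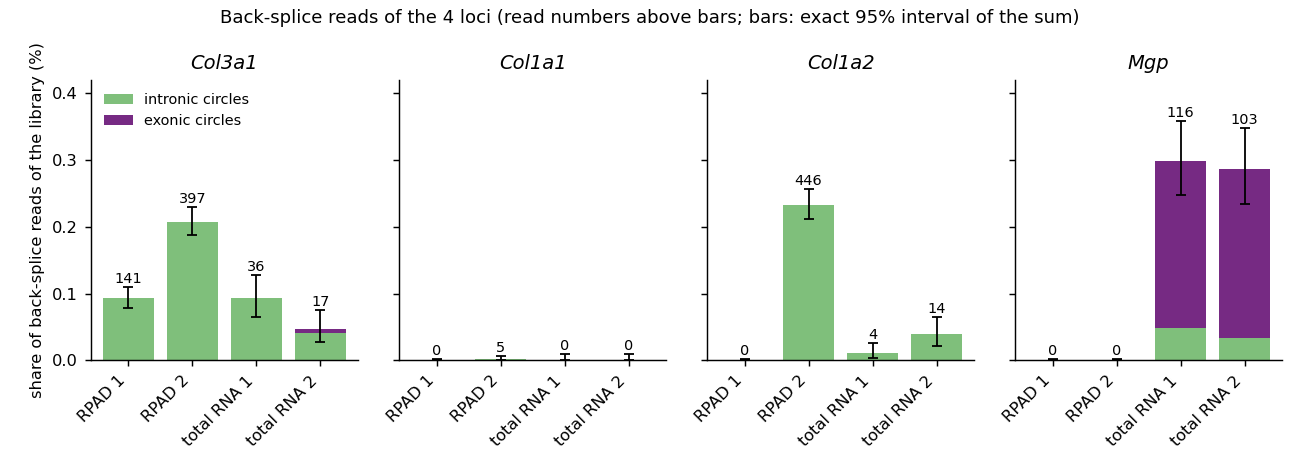
Share of each library's back-splice reads (%, linear axis from 0) at the 4 loci, stacked by circle type, with read numbers above the bars and exact 95% intervals of the sum, 1 bar per library, RPAD left of total RNA. The 0 reads of both RPAD libraries at Mgp stand beside 116 and 103 in total RNA, and the 446 reads of Col1a2 in RPAD 2 stand beside 0 in RPAD 1.

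The exonic circle of Mgp joined the end of exon 3 to the start of exon 1 of transcript ENSMUST00000032342, at chr6:136821688-136824326 on the minus strand. It held exon 1 (136 nt, chr6:136824191-136824326), exon 2 (33 nt, chr6:136822788-136822820) and exon 3 (76 nt, chr6:136821688-136821763), in all 245 nt of spliced RNA from 2639 nt of the gene. The median exonic circle of the series was 510 nt long, and 27.2% were no longer than the Mgp circle. The circle had 0 reads in RPAD library 1 and 0 in RPAD library 2, against 97 in total RNA library 1 and 91 in total RNA library 2. Its level was nearly the same in both total RNA libraries, at 0.250% and 0.253% of their reads (mean 0.251 ± 0.00229%, SD, n = 2), and it was not detected in either RPAD library. It ranked 17 of 2067 exonic circles in total RNA library 1 and 19 of 1821 in total RNA library 2. Its share was at least 286-fold lower in RPAD on the same floor.

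**Figure D2:**
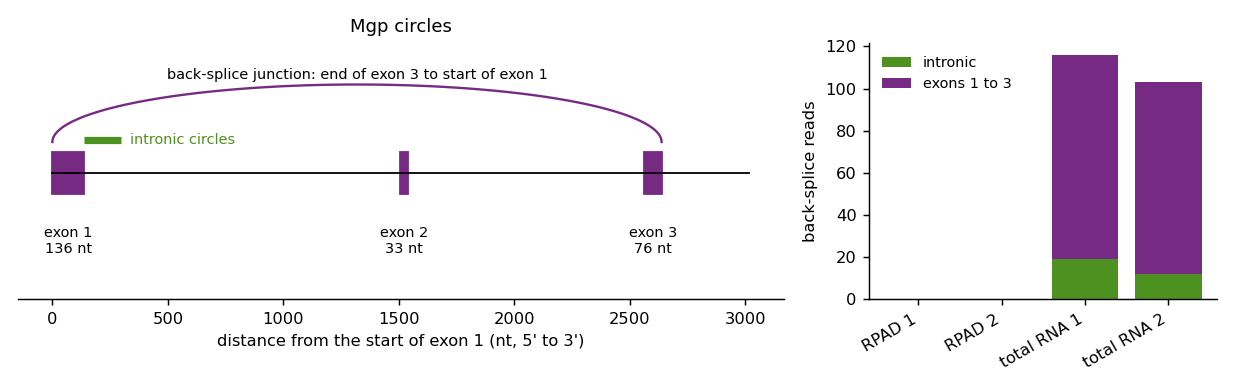
Left, the exons of Mgp that form its exonic circle, to scale in nt from the start of exon 1, with the back-splice junction as an arc and the stretch of intron 1 covered by intronic circles in green; right, back-splice reads per library by circle type, RPAD left of total RNA. The exonic circle took 97 of 116 and 91 of 103 reads of total RNA, and both RPAD libraries had 0 reads.

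In the edgeR quasi-likelihood test over 924 circles the Mgp circle was not called, where 0.00% of circles were. Its unadjusted p was 0.00926, rank 3 of 924, where 15.8% of circles were lower in RPAD at an unadjusted p under 0.05, and its adjusted p was 0.179 by edgeR with a fitted log2 fold change of -11.32 (SE 2.62) that depends on the prior count and is no bound. DESeq2 gave an adjusted p of 0.0722, and of 0.0302 with its independent filtering, a setting chosen after seeing the data that called 7.79% of circles as lower in RPAD. Adjusted p-values over all alternatives ran between 0.000128 and 1 by edgeR or DESeq2. The edgeR call changed when an RPAD library was left out: the adjusted p was 0.00174 without RPAD library 1 and 0.000128 without RPAD library 2, in fits that called 19.9% and 23.2% of all circles. Those fits hold 1 RPAD library against 2 total RNA libraries, so their spread comes from the total RNA pair alone and the lone RPAD library is assumed to vary like it. Among circles tested, 15.6% had 0 reads in both RPAD libraries, and for 26.6% the groups did not overlap with RPAD lower. With 0 RPAD reads, the Mgp circle passed the low-count filter through total RNA alone. That filter scales with library size, so fewer reads sufficed in the smaller total RNA libraries. Circles, host groups and introns lower in RPAD thus entered the tests more easily, and the rank and these shares are descriptive. By edgeR at an unadjusted p under 0.05, 146 circles were lower in RPAD and 16 higher. Summed over the locus, Mgp had an edgeR adjusted p of 0.137 (rank 6 of 1424 host groups, fitted log2 fold change -11.46), where 24.1% of host groups had 0 reads in both RPAD libraries. DESeq2 called the locus with an adjusted p of 0.0141, as it called 7.09% of host groups as lower in RPAD, and the adjusted p ran between 6.70e-05 and 1 over the alternatives of edgeR and DESeq2.

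The Mgp circle contained the first exon of its transcript, so the files gave it a flanking intron on 1 side only, chr6:136821310-136821687 downstream of exon 3. With no intron listed upstream of exon 1, the start of exon 1 is not a listed splice site. The junction therefore does not join 2 listed splice sites, and how it formed was not tested. That intron was 378 nt long, against a median of 3872 nt for the flanking introns of exonic circles, and 11.9% of those were no longer. Circles with a first or last exon were uncommon: 236 of 4074 exonic circles (5.79%) held one, and 155 (3.80%) held exon 1. Of the 67 exonic circles that had 20 or more reads in each total RNA library, the Mgp circle was the only one with a first or last exon, and 12 of the 67 (17.9%) had 0 reads in both RPAD libraries. By summed total RNA reads the Mgp circle was rank 2 among exonic circles with 0 reads in both RPAD libraries. At a lower minimum of 5 reads in each total RNA library, all 5 circles with a first or last exon had 0 reads in both RPAD libraries, against 77 of 200 circles without one. Both minimums were set on total RNA reads and chosen after the values were seen, the Mgp circle is 1 of the 5, and no test was made of this difference. The sets also differ in depth, as only the Mgp circle of the 5 had 20 or more reads in each total RNA library. Having 0 reads in both RPAD libraries was less common at the higher minimum (12 of 67 exonic circles) than at the lower (82 of 205).

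**Figure D3:**
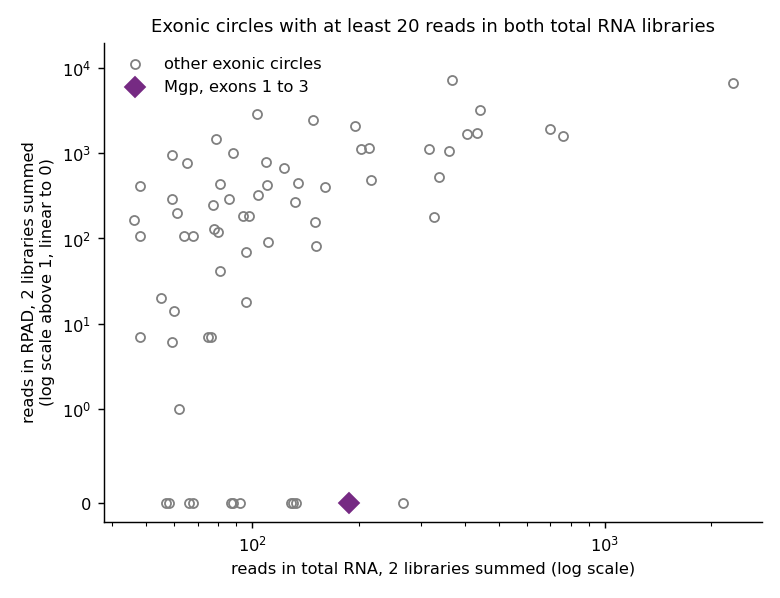
Reads in the 2 total RNA libraries summed (horizontal log axis) against reads in the 2 RPAD libraries summed (vertical axis, log above 1 and linear to 0) for the 67 exonic circles that had 20 or more reads in each total RNA library, 1 point per circle, Mgp as a filled diamond. The Mgp circle lies on the line at 0 with 11 others, at 188 total RNA reads.

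Exonic reads made up more of the Mgp locus than of the libraries as a whole. They were 83.6% of Mgp reads in total RNA library 1 (exact 95% interval 75.6 to 89.8) and 88.3% in total RNA library 2 (80.5 to 93.8), where exonic circles took 41.6% and 42.8% of all back-splice reads. The rest of the Mgp reads lay on 15 circles of intron 1 (chr6:136822821-136824190, 1370 nt), all starting at its 5' splice site. The intron had 0 reads in RPAD library 1 and 0 in RPAD library 2, against 19 reads on 9 circles in total RNA library 1 and 12 reads on 8 circles in total RNA library 2. Both total RNA libraries were again above both RPAD libraries, and the share was at least 47.2-fold lower in RPAD on the floor of 3 reads. The intron was not called by edgeR (adjusted p 0.113, with 0.00% of 1026 introns called), and 27.2% of introns tested had 0 reads in both RPAD libraries. Intronic circles of Mgp were 107 to 162 nt long in total RNA library 1 and 101 to 159 nt long in total RNA library 2. The most read one, chr6:136824031-136824190 (160 nt), had 11 reads in total RNA library 1 and 0 in each of the other libraries. Of the circles of the locus, 10 in total RNA library 1 and 9 in total RNA library 2, the libraries shared 3, the exonic circle among them. Only 1 of the 16 Mgp circles, the exonic one, passed the filter on low counts.

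Col3a1, the type III collagen gene, had reads in all 4 libraries, nearly all on intronic circles. It had 141 reads on 35 circles in RPAD library 1 and 397 on 77 circles in RPAD library 2, against 36 on 21 circles in total RNA library 1 and 17 on 14 circles in total RNA library 2. The shares were 0.0937% (exact 95% interval 0.0789 to 0.110) and 0.208% (0.188 to 0.229) in RPAD, against 0.0927% (0.0649 to 0.128) and 0.0472% (0.0275 to 0.0756) in total RNA. RPAD library 2 was the highest and total RNA library 2 the lowest, while RPAD library 1 and total RNA library 1 were within each other's interval. As shares of the reads in host groups tested, total RNA library 1 was above RPAD library 1, so the groups overlapped. On that measure RPAD was the higher without overlap for 6.18% of host groups tested, and Col3a1 was not among them. The mean share was 0.151 ± 0.0805% in RPAD and 0.0700 ± 0.0321% in total RNA (SD, n = 2 each). The difference of 0.0807 percentage points had an exact two-sided permutation p of 0.333 and was 0.0237 without RPAD library 2. In the edgeR fit over host groups Col3a1 had a log2 fold change of 0.92 (SE 1.68) and an adjusted p of 0.895 by edgeR. With only junctions of score 0 the log2 fold change was -0.10. Col3a1 ranked 226 of 1315 and 110 of 1746 host groups in RPAD, against 175 of 3798 and 470 of 3254 in total RNA.

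Exonic circles of Col3a1 were at the edge of detection. There were 3, with 4 of the 591 reads of the locus. The circle chr1:45384434-45384708, of 2 exons and 108 nt, had 2 reads in RPAD library 2 and 0 elsewhere. The circle chr1:45394271-45395472 held exons 23 to 25 of transcript ENSMUST00000172410, 216 nt, and had 1 read in total RNA library 2. Exon 28 alone, chr1:45396719-45396826 and 108 nt, had 1 read in total RNA library 2. None of the 3 was read in more than 1 library, as held for 80.9% of all exonic circles. A single read in all was found for 31.1% of exonic circles. The spliced lengths of all 3 are multiples of 54 nt, which follows where a circle is made of whole helix exons of such sizes. Among exonic circles of all genes 106 (2.60%) had such a length, a background that does not match collagen exons. Exonic reads were thus 0% and 0.504% of Col3a1 reads in RPAD, where 37.2% and 48.0% of all back-splice reads were exonic, and 0% and 11.8% in total RNA, where 41.6% and 42.8% were. Exact 95% intervals of these Col3a1 shares were 0 to 2.58% and 0.0611 to 1.81% in RPAD, against 0 to 9.74% and 1.46 to 36.4% in total RNA, all below the library-wide share.

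The 123 intronic circles of Col3a1 lay in 13 introns, and the libraries read different ones. Of the 13 introns, 10 had reads in 1 library, 1 in 2, 1 in 3 and 1 in 4, and 77.4% of all introns with circles in the series were read in 1 library. The intron read in every library was chr1:45396258-45396718 (461 nt, intron 27 of ENSMUST00000172410). It had 98 reads on 22 circles in RPAD library 1 and 13 on 6 circles in RPAD library 2, against 13 on 8 circles in total RNA library 1 and 12 on 9 circles in total RNA library 2. RPAD library 1 was high and the other libraries were alike in reads, but as shares RPAD library 2, at 0.00680%, was the lowest, below 0.0335% and 0.0334% in total RNA, and RPAD library 1 the highest at 0.0651%. The groups overlapped, and the intron was not called by edgeR (log2 fold change -0.90, adjusted p 0.999). It held the only Col3a1 circle that passed the filter on low counts, 1 of 126, at chr1:45396258-45396360 (103 nt). That circle had 11 and 5 reads in RPAD, against 0 and 3 in total RNA, with an edgeR log2 fold change of -0.05 (SE 2.49) and adjusted p of 0.999, and its sign changed under 8 of 11 alternatives.

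The intron with the highest mean share, chr1:45380643-45382204 (1562 nt), was read in RPAD library 2 alone. It had 0 reads in RPAD library 1 and 329 in RPAD library 2, against 0 in each total RNA library. Those 329 reads were 82.9% of the Col3a1 reads of RPAD library 2 and placed it at rank 65 of the library's introns. They were spread over 42 circles that all began at the 5' splice site and ended 101 to 145 nt into the intron, and that filled 93.3% of the end positions in that stretch. The most read of them, chr1:45380643-45380752 (110 nt), had 24 reads. Such runs of neighbouring ends were not limited to Col3a1: 186 introns of RPAD library 2 held at least 40 circles, with a median of 70.4% of positions filled. The third intron by mean share, chr1:45393550-45394085 (536 nt), had 31 and 9 reads in RPAD, against 4 and 0 in total RNA. Its circles were longer, at 309 to 387 nt and 319 to 384 nt in RPAD, against 318 to 350 nt in total RNA library 1, with read-weighted medians of 315 and 323 nt in RPAD and 318.5 nt in total RNA library 1.

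The other 10 introns of Col3a1 had 1 to 28 reads each. The intron chr1:45401905-45402692 had 0 and 26 reads in RPAD, against 2 and 0 in total RNA. The intron chr1:45389864-45390407 had 18 reads in RPAD library 2 alone, and chr1:45387454-45387950 had 12 in RPAD library 1 alone. The remaining 7 had reads in total RNA alone, at most 4 each. Total RNA library 1 held the only whole-intron circle of the 4 genes, chr1:45389088-45389809 (722 nt), with 3 reads, and a circle of 1024 nt in the intron chr1:45399076-45400100 (1025 nt), with 4 reads.

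**Figure D4:**
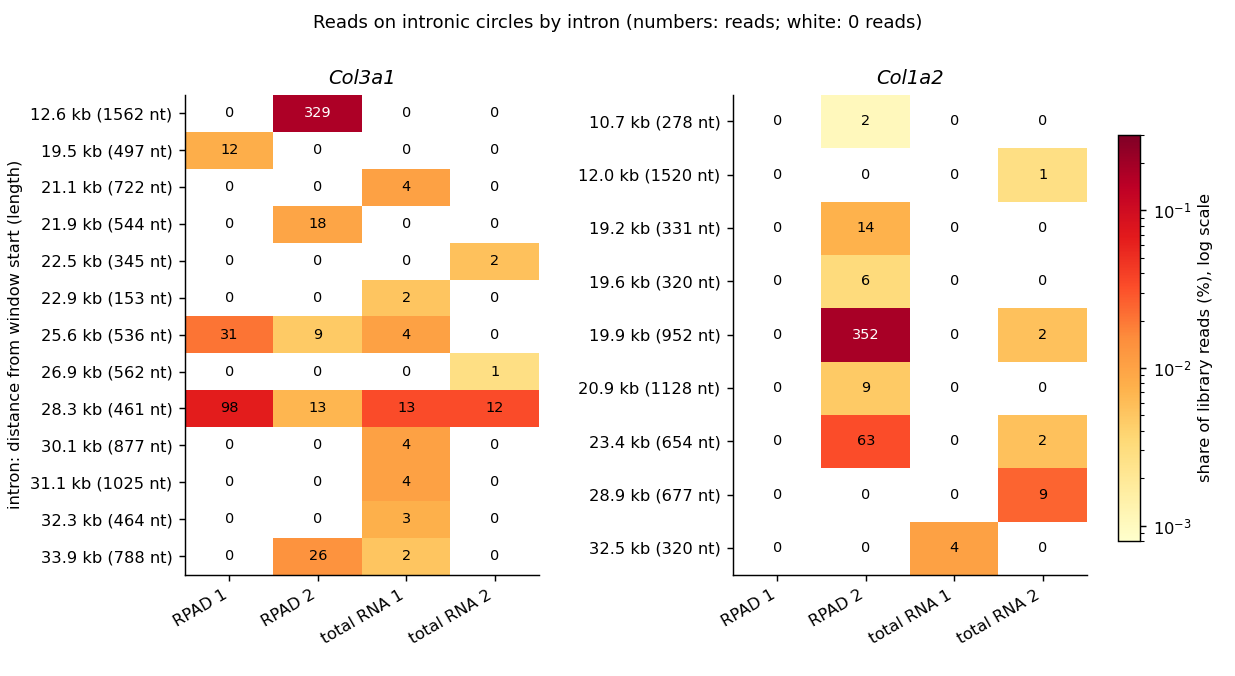
Back-splice reads on intronic circles for each intron of Col3a1 and Col1a2 (rows, labelled by distance of the intron from the start of the gene's window in kb and by intron length) in each library (columns, RPAD left of total RNA), with the colour giving the share of library reads on a log scale and white for 0 reads. Most introns have reads in 1 library; the Col3a1 intron of 461 nt has reads in all 4, and the 329 and 352 reads of RPAD 2 stand alone in their rows but for 2 reads in total RNA 2.

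Of the type I collagen genes, Col1a2 was read mostly in 1 RPAD library. It had 0 reads in RPAD library 1 and 446 reads on 106 circles in RPAD library 2, against 4 reads on 3 circles in total RNA library 1 and 14 on 12 circles in total RNA library 2. Its shares were 0% and 0.233% (exact 95% interval 0.212 to 0.256) in RPAD, against 0.0103% (0.00281 to 0.0264) and 0.0389% (0.0213 to 0.0653) in total RNA. RPAD library 2 was the highest and RPAD library 1 the lowest, so the RPAD values lay on both sides of total RNA. The mean share was 0.117 ± 0.165% in RPAD and 0.0246 ± 0.0202% in total RNA (SD, n = 2 each), a difference of 0.0920 percentage points with an exact two-sided permutation p of 1. Without RPAD library 2 the difference was -0.0246 percentage points. By edgeR the log2 fold change of the locus was 2.11 (SE 3.05, adjusted p 0.883), and without RPAD library 2 it was -7.45 with an adjusted p of 0.0211 by edgeR, in a fit that called 43.6% of host groups and whose spread comes from the total RNA libraries alone. Over all alternatives the adjusted p ran between 0.0211 and 1 by edgeR or DESeq2.

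All 118 Col1a2 circles were intronic, and none passed the filter on low counts (0 of 118). They lay in 9 introns, 7 of them read in 1 library and 2 in RPAD library 2 and total RNA library 2. Intron 28 of ENSMUST00000169615, chr6:4474930-4475881 (952 nt), had 0 reads in RPAD library 1 and 352 on 74 circles in RPAD library 2, against 0 in total RNA library 1 and 2 in total RNA library 2. It held 78.9% of the Col1a2 reads of RPAD library 2, where it ranked 58 by reads and 31 by number of circles among introns. Its circles ended 109 to 196 nt into the intron, filled 84.1% of the positions in that stretch, and had at most 13 reads each (chr6:4474930-4475104, 175 nt). Intron 31, chr6:4478414-4479067 (654 nt), had 0 and 63 reads in RPAD, against 0 and 2 in total RNA, with RPAD circles of 101 to 120 nt and total RNA circles of 108 and 111 nt. It held the most read Col1a2 circle, chr6:4478414-4478517 (104 nt), with 19 reads in RPAD library 2 and 0 elsewhere. In contrast, chr6:4483904-4484580 (677 nt) had 9 reads in total RNA library 2 alone and chr6:4487458-4487777 (320 nt) had 4 reads in total RNA library 1 alone. RPAD library 2 and total RNA library 2 shared 3 of their 106 and 12 circles, which is 2.83% and 25.0%, and no other pair of libraries shared any (0).

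Col1a1, the other type I collagen chain, gave 1 circle. It was chr11:94803096-94803221 (126 nt), in an intron of 234 nt (chr11:94803096-94803329), with 0 reads in RPAD library 1 and 5 in RPAD library 2, against 0 and 0 in total RNA. The share in RPAD library 2 was 0.00261% (exact 95% interval 0.000849 to 0.00610), and the upper limit of 0.00772% and 0.00834% that 0 reads allow in total RNA lies above it. A difference between the groups was therefore not detectable at this depth.

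Reads in 1 library alone were common in the whole series. Of the 261 circles of the 4 genes, 92.0% were listed in 1 library, against 90.6% of all circles. The collagen introns with at least 20 reads in RPAD library 2 numbered 4, and all 4 had 0 reads in RPAD library 1. Over the whole series, 572 of 728 such introns (78.6%) had 0 reads in RPAD library 1, and 477 of 645 introns (74.0%) with at least 20 reads in RPAD library 1 had 0 in RPAD library 2. Both collagen introns with at least 20 reads in RPAD library 1, the Col3a1 introns of 461 and 536 nt, were also read in RPAD library 2. At an equal 35981 reads per library the expected number of Col3a1 circles was 20.1 and 39.7 in RPAD, against 20.2 and 14 in total RNA. For Col1a2 it was 0 and 53.9 in RPAD, against 2.85 and 12 in total RNA, and for Mgp 0 and 0 in RPAD, against 9.41 and 9 in total RNA.

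The intronic circles of the 4 genes differed in length. All began at the 5' splice site, but so did 100% of intronic circles in the series, so that start is no trait of these genes. Between 100 and 200 nt lay 211 of 257 (82.1%), against 68.5% of all intronic circles, but 183 of the 4 genes' circles were listed in RPAD library 2 and the libraries went opposite ways. The share was 62.9% against 72.7% of all intronic circles in RPAD library 1, 88.0% against 72.9% in RPAD library 2, 63.6% against 66.5% in total RNA library 1 and 93.8% against 63.0% in total RNA library 2. By gene, 78 of 123 Col3a1 circles (63.4%), 117 of 118 Col1a2 circles (99.2%), all 15 Mgp circles and the Col1a1 circle lay in that range. Much of this came from single introns in RPAD library 2. There the Col1a2 intron of 952 nt gave 74 circles in that range, and the Col3a1 intron of 1562 nt gave 42. Few ended near the 3' end of the intron, where lariat branch points lie: 4 of 257 (1.56%) were within 50 nt of it, all at Col3a1 in total RNA library 1, against 0.933% of all intronic circles. In the Col3a1 intron of 461 nt the read-weighted median end was 128 and 112 nt in RPAD, against 111 and 109.5 nt in total RNA. Over all introns with at least 5 reads in both libraries of a pair, such medians differed by 8.75 to 11 nt in the median intron, and by at most 20 nt in 69.6% to 77.6% of introns, depending on the pair. Circles of 1 intron share their start and overlap, so they were not taken as independent of each other.

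**Figure D5:**
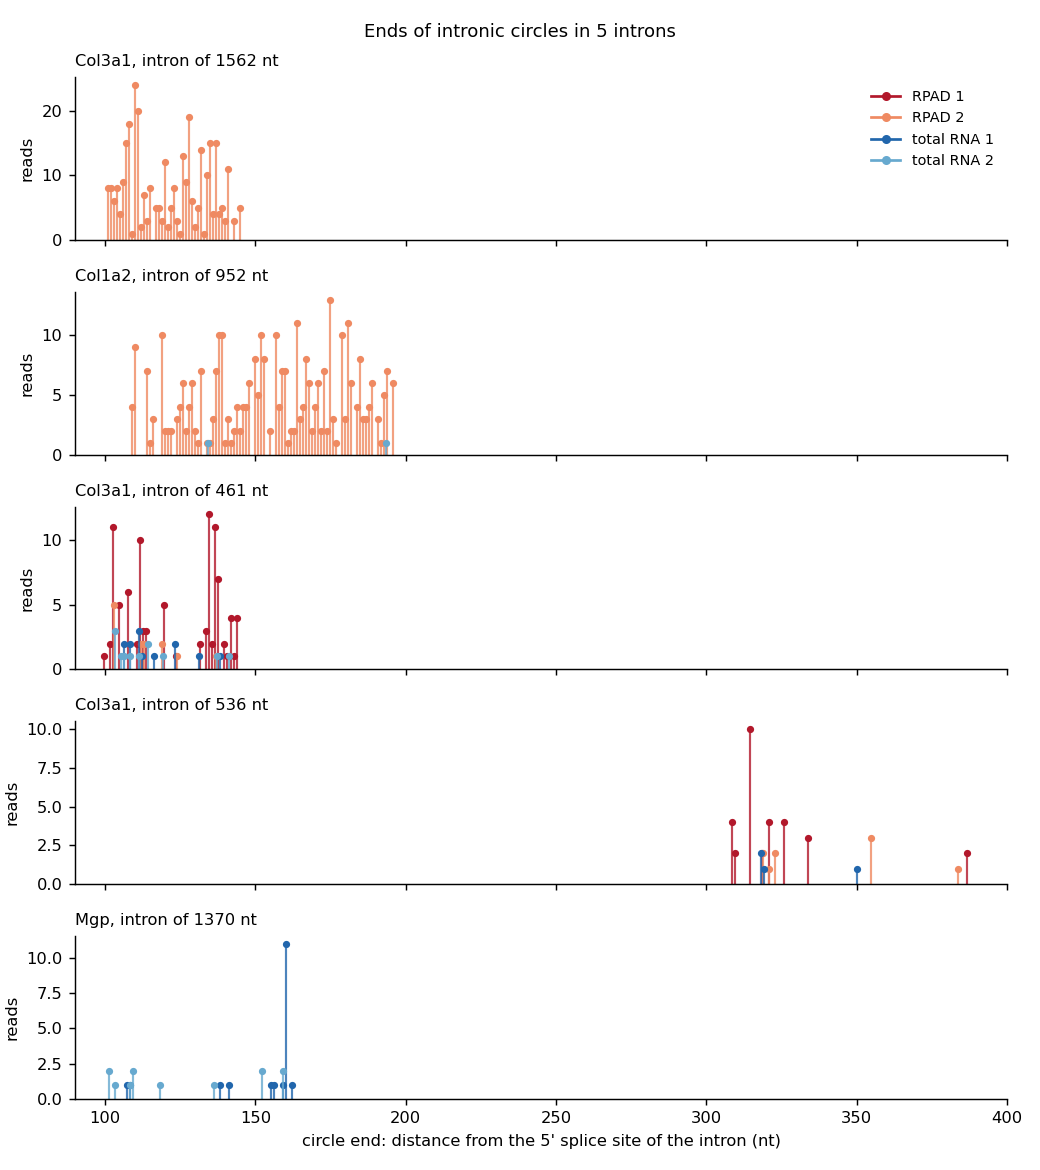
Reads (vertical axis, linear from 0) by circle end, in nt from the 5' splice site, for 5 introns of Col3a1, Col1a2 and Mgp, 1 stem per circle and library, RPAD in reds and total RNA in blues. The ends span 101 to 145 nt in the Col3a1 intron of 1562 nt and, with gaps between them, 309 to 387 nt in that of 536 nt.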

How the data were processed

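Back-splice junctions were measured in 4 C2C12 libraries, grouped by their titles into 2 RPAD and 2 total RNA libraries. Ribosomal RNA was depleted and cDNA amplified before sequencing, per the labels' protocols. The submitters' processing notes name TopHat, Cufflinks 2.2.1, cutadapt and the mm9 build; the name of the back-splice caller was not given in the sources used here. The deposited values are raw counts of back-splice reads per circle and library, per the file headers. Each junction also has a deposited score of 0 to 3 (per the file headers). No source used here explains it, and 1 alternative kept only junctions of score 0.

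Chromosome, start, end (counted from 1) and strand defined a circle, and a circle absent from a file had 0 reads. Gene names rest on the position windows alone, because the files name transcripts without symbols; other matrix genes were not analysed here. Hosts were transcripts linked by a shared circle or intron, except that each of the 4 windows was kept as 1 host of its own. Entries of a window were thus pooled by position, whichever transcript they were listed under. Ranks and tests of the 4 genes among hosts therefore set position-pooled groups beside transcript-linked ones. Circles, hosts and introns were tested over the whole table with edgeR 4.0.16 (R 4.3.3; quasi-likelihood F test, TMM, minimum count 5 and minimum total 10, group only, Benjamini-Hochberg adjusted p under 0.05). DESeq2 1.42.0, other scalings and filters, score 0, a replicate block and leaving out each library were alternatives. The SE of a log2 fold change restates the F test. The fold change is relative to the other features tested, whose median was -0.15 for circles and -0.94 for hosts. Shares carry exact Clopper-Pearson 95% intervals and were compared by exact permutation tests over libraries in Python 3.11.15 with scipy 1.17.1. Expected circles at 35981 reads are exact means of thinning.

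The members, the gene list and the tests were chosen with earlier results of these data known. Named items were, per gene, all exonic circles and the 3 intronic circles and 3 introns with the highest mean share; others were named after their values were seen.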

Additional observations from a re-analysis of the deposited data

How the results depend on the processing

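Counts of calls depended on the settings. With 0 Mgp reads in both RPAD libraries, no alternative could turn the sign of the Mgp difference. By edgeR 0 circles were called, against 78 by DESeq2 with independent filtering and 0 to 214 when 1 library was left out. For host groups edgeR called 0, against 104 by DESeq2, 178 by DESeq2 with independent filtering, 2 without a low-count filter and 0 to 621 when 1 library was left out. With the replicate block edgeR called 0 circles and 1 host group; the deviations of same-numbered libraries correlated at 0.02 over circles, 0.01 over host groups and 0.07 over introns, with 2 pairs, and since the labels do not say what a number marks, no pairing was assumed. The higher counts came with 1 RPAD library left out, 184 circles and 536 hosts without RPAD library 1 and 214 and 621 without RPAD library 2, in fits whose spread comes from the total RNA pair alone; the cause was not tested.

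The Col1a2 difference rested on RPAD library 2. With 1 library left out, it ran between -0.0246 and 0.209 percentage points in share, between -7.5 and 98.5 in circles listed, and between -7.45 and 3.41 in log2 fold change, which was -1.37 with the replicate block. The Col3a1 locus had a log2 fold change of -0.10 with junctions of score 0, against 0.92. That of the Col3a1 circle tested was -0.05, against 0.24 with DESeq2 size factors, 0.25 with library totals and in both DESeq2 fits, 0.57 without a filter, 0.88 with the replicate block, and -1.01 to 5.51 with 1 library left out. The totals of 35981 to 38850 reads in total RNA limited what could be seen at Col1a1 and among exonic circles of Col3a1.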

Other observations

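The share of junctions with score 0 varied between libraries within a gene. Of the intronic circles of Col3a1, 100% had score 0 in RPAD library 1 and 36.8% in RPAD library 2, against 71.4% in total RNA library 1 and 83.3% in total RNA library 2. For Col1a2 it was 98.1% in RPAD library 2, against 0% in total RNA library 1 and 41.7% in total RNA library 2, where it listed 3 and 12 circles. All 15 intronic circles of Mgp had score 0. The Col3a1 intron of 1562 nt with 329 reads in RPAD library 2 had junctions of score 1.

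The circle of 722 nt in Col3a1 that spans an intron from end to end was 1 of 55 such circles among the 65062 intronic circles of the series. Of those 55, total RNA libraries 1 and 2 listed 27 and 23, against 5 and 2 in RPAD libraries 1 and 2. As shares of the intronic circles listed, these were 0.161% and 0.157% in total RNA, against 0.0334% and 0.00780% in RPAD.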
